A study of Mus musculus with 6 samples.

Results

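A listed set of TNF superfamily ligands was followed in tumor-associated macrophages (TAMs) with and without a myeloid deletion of Pdcd1, the gene of the inhibitory receptor PD-1. The members were 10 listed genes, Tnfsf4, Tnfsf8, Tnfsf9, Tnfsf10, Tnfsf12, Tnfsf13, Tnfsf13b, Tnfsf14, Tnfsf15 and Tnfsf18, matched by symbol to the Ensembl identifiers of the deposited tables. All 10 were present in the raw and the normalized table and all 10 were among the 14469 genes tested, of 55421 rows in the count table. RNA was sequenced from 6 libraries, 3 of TAMs from Pdcd1f/f mice and 3 of TAMs from Pdcd1f/fLysMcre mice. Pdcd1f/f mice carry loxP-flanked Pdcd1 alleles and no Cre, and Pdcd1f/fLysMcre mice carry the same alleles and Cre recombinase driven by the lysozyme M promoter, which is active in macrophages, monocytes and neutrophils. Mice of both genotypes bore MC17-51 fibrosarcoma, and the cells were collected on day 15 and sorted as live CD45+CD11b+F4/80+Ly6G- cells. The labels give no age, sex or strain background, and they do not say whether each library came from one mouse or from several, so the p-values measure only the spread between these libraries.

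TNF superfamily ligands are trimeric proteins of the cell surface, several of which are also cut free as soluble cytokines, and each binds receptors of the TNF receptor superfamily. Receptors without a death domain recruit TRAF adaptors and switch on NF-kB signaling, whereas receptors with a death domain can also start cell death. Macrophages and dendritic cells use OX40 ligand, CD30 ligand, CD137 ligand, LIGHT, TL1A and GITR ligand to costimulate T cells, and BAFF and APRIL to sustain B cells and plasma cells.

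Promoter sequences were read for the ligands whose libraries did not overlap between genotypes, Tnfsf8, Tnfsf13 and Tnfsf14. Each window is the 250 bases before the gene's start in RefSeq, build GRCm38.p6, on the gene's own strand, which is the minus strand in all 3. Windows were matched by symbol for 7 of the 10 members, and none was matched for Tnfsf4, Tnfsf9 and Tnfsf12. Capitals mark matches on either strand to 4 motifs, which were GGG and CC with any 5 bases between them (NF-kB-like, in 45.8% of all 32851 windows), TGANTCA (AP-1-like, in 6.75%), GAGGAAG (ETS-like, in 10.6%) and TATAAA (in 12.4%). The Tnfsf8 window held none of the 4 motifs. Its last 63 bases lie in an exon of the GENCODE M21 annotation, and the 187 bases before that exon, chr4:63861348-63861534, read 5′ to 3′:
Tnfsf8: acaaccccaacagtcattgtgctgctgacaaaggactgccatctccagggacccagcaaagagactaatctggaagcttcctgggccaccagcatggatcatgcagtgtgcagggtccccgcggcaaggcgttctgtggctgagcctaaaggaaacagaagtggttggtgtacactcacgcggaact
The Tnfsf14 window, chr17:57194182-57194431, held 1 AP-1-like match starting 160 bases before the start and 4 NF-kB-like matches at 183, 182, 101 and 51 bases, of which the first 2 overlap each other, and reads 5′ to 3′:
Tnfsf14: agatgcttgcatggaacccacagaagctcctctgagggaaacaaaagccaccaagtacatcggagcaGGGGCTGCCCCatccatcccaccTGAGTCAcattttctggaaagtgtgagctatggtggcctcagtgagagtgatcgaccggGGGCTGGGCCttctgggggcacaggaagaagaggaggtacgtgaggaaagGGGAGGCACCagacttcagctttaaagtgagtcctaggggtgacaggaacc
The Tnfsf13 window, chr11:69685555-69685804, held 1 AP-1-like match at 133 bases and 2 overlapping NF-kB-like matches at 20 and 19 bases before the start. It is not printed, because 230 of its 250 bases lie in annotated exons. The AP-1-like match lay in the windows of Tnfsf13 and Tnfsf14, in 1 of the 2 windows of Tnfsf13b, and in no window of the other 4 matched members. In that window of Tnfsf13b, 166 of the 250 bases lie in annotated exons. The window of Tnfsf18 held 1 ETS-like match and 1 TATAAA match. A match describes only the letters of these windows, and no binding was measured.

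The libraries held 41833823 to 51417209 gene counts. For Pdcd1 itself, 10, 12 and 15 counts came from Pdcd1f/f TAMs and 7, 16 and 11 from Pdcd1f/fLysMcre TAMs (edgeR, adjusted p = 0.771), so the gene's RNA was too scarce to check the deletion. Lyz2, the locus into which LysM-Cre is inserted, fell by 8.99 on the log2 scale. Only Pdcd1f/fLysMcre mice carried Cre, so the Pdcd1 deletion, the Cre insertion and the lower Lyz2 RNA cannot be told apart. Pdcd1f/f replicate 1 and Pdcd1f/fLysMcre replicate 2 stood apart, because their genes' deviations from the mean fell with GC content (Spearman rho of -0.579 and -0.49 across 14454 genes), against 0.117 to 0.511 in the other 4. Uty, Kdm5d, Eif2s3y and Ddx3y lie on the Y chromosome. Their summed normalized counts were 1545 to 1914 in Pdcd1f/f and 6267 to 7233 in Pdcd1f/fLysMcre libraries. For Xist the ranges were 17318 to 26511 and 8530 to 13137. The sexes of the donor mice and the genotype therefore cannot be told apart. Every library held both Y-linked and Xist RNA, and whether donors of both sexes were pooled within a library was not tested. Of 10 macrophage markers, all 10 were tested and had a log2 fold change below 0, 8 were lower without overlap between genotypes (13.1% of all genes were), and 7 fell past an adjusted p of 0.05 in edgeR (3.01% of all genes did), with a summed level of 347555 to 416351 normalized counts in Pdcd1f/f and 282230 to 307770 in Pdcd1f/fLysMcre libraries, while Ly6g, which the sort removed, had 0 to 3 counts.

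Counts per kilobase of exon, scaled to the library total (RPKM, computed here from the raw counts), order the ligands by level across all 6 libraries. Tnfsf9, which encodes CD137 ligand, a costimulator of CD8+ T cells, stood at 34 ± 1.91 RPKM (SD, n = 6) and made up 55.6% to 59.9% of the summed ligand RPKM in each library. Tnfsf12 followed at 10.1 ± 0.686 RPKM and Tnfsf14 at 8.08 ± 1.19. The ranges of these 2 overlapped, although Tnfsf12 was above Tnfsf14 in 6 of 6 libraries. Tnfsf13 at 1.8 ± 0.645, Tnfsf10 at 1.4 ± 0.0353, Tnfsf8 at 1.29 ± 0.178 and Tnfsf15 at 1.17 ± 0.136 RPKM formed a group in which every ligand overlapped its neighbor in the order. Within this group the order of means turned with genotype, from Tnfsf13 at 2.26, Tnfsf10 at 1.41, Tnfsf8 at 1.15 and Tnfsf15 at 1.13 RPKM in Pdcd1f/f to Tnfsf8 at 1.42, Tnfsf10 at 1.39, Tnfsf13 at 1.33 and Tnfsf15 at 1.21 in Pdcd1f/fLysMcre TAMs. Tnfsf4 was next at 0.766 ± 0.116 RPKM, apart from its neighbors on both sides. Tnfsf18 at 0.214 ± 0.0672 and Tnfsf13b at 0.156 ± 0.0345 RPKM were lowest and overlapped. The highest mean was 218 times the lowest. The levels of Tnfsf12 and Tnfsf13, which share exons with Tnfsfm13, depend on the exon length used. Dividing the same counts by the exon bases that no other gene of the strand shares, which presumes that no read from shared exons was counted, gave 19.6 ± 1.32 RPKM for Tnfsf12 and 4.49 ± 1.61 for Tnfsf13. The order over all 6 libraries stayed the same, but Tnfsf12 then no longer overlapped Tnfsf14, Tnfsf13 overlapped Tnfsf14 and no longer Tnfsf10 and kept its place above Tnfsf10 and Tnfsf8 in both genotypes (5.66 RPKM in Pdcd1f/f and 3.33 in Pdcd1f/fLysMcre TAMs), and Tnfsf9 made up 46% to 50.4% of the sum; this alternative was chosen after the data were seen.

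**Figure D1:**
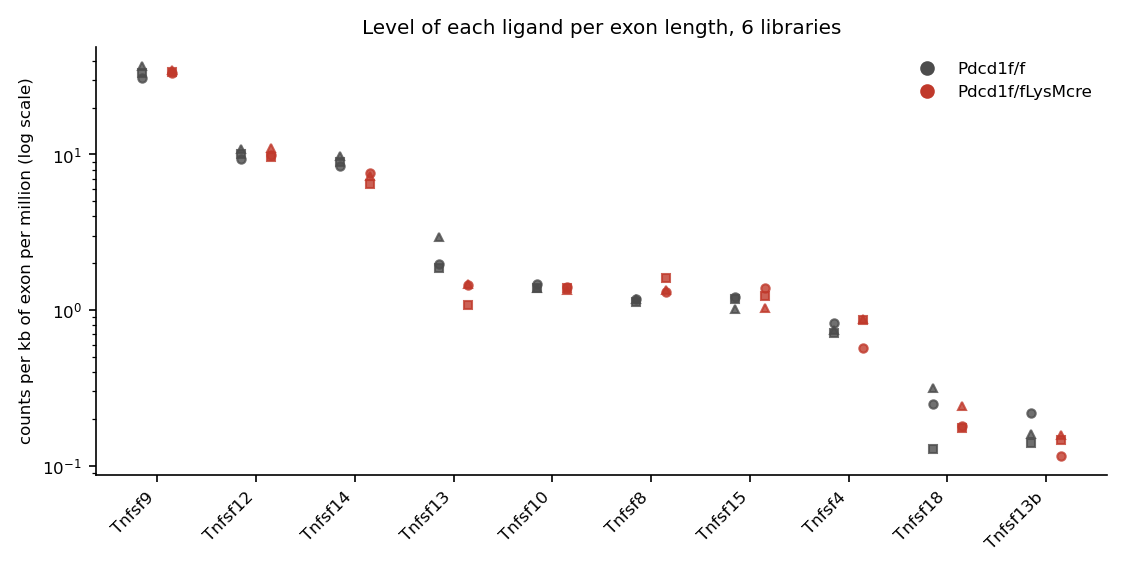
Level of each ligand in RPKM (log axis), with 1 point per library for 3 Pdcd1f/f and 3 Pdcd1f/fLysMcre libraries. Tnfsf9 lies above every other listed ligand in all 6 libraries, and Tnfsf18 and Tnfsf13b lie lowest, between 0.116 and 0.314.

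The genotypes were compared to ask whether TAMs of Pdcd1f/fLysMcre mice had a different ligand repertoire from TAMs of Pdcd1f/f mice without Cre. Of the 10 ligands, 0 passed an adjusted p of 0.05 in edgeR's quasi-likelihood test, against 5.43% of all genes tested (2.42% higher and 3.01% lower). At an unadjusted p under 0.05 there were 3 ligands, Tnfsf8, Tnfsf13 and Tnfsf14, against 24.2% of all genes, and DESeq2 called 2, Tnfsf13 and Tnfsf14, where it called 13.0% of all genes with Storey's q (6.21% higher and 6.75% lower) and 12.8% with Benjamini-Hochberg adjustment. The libraries of the genotypes did not overlap for these same 3 ligands, 1 higher and 2 lower in Pdcd1f/fLysMcre TAMs, against 27.2% of all genes in either direction (14.1% higher and 13.1% lower). The median log2 fold change of the 10 was 0.01 and the median of their absolute values 0.16, where all genes tested gave 0 and 0.16.

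**Figure D2:**
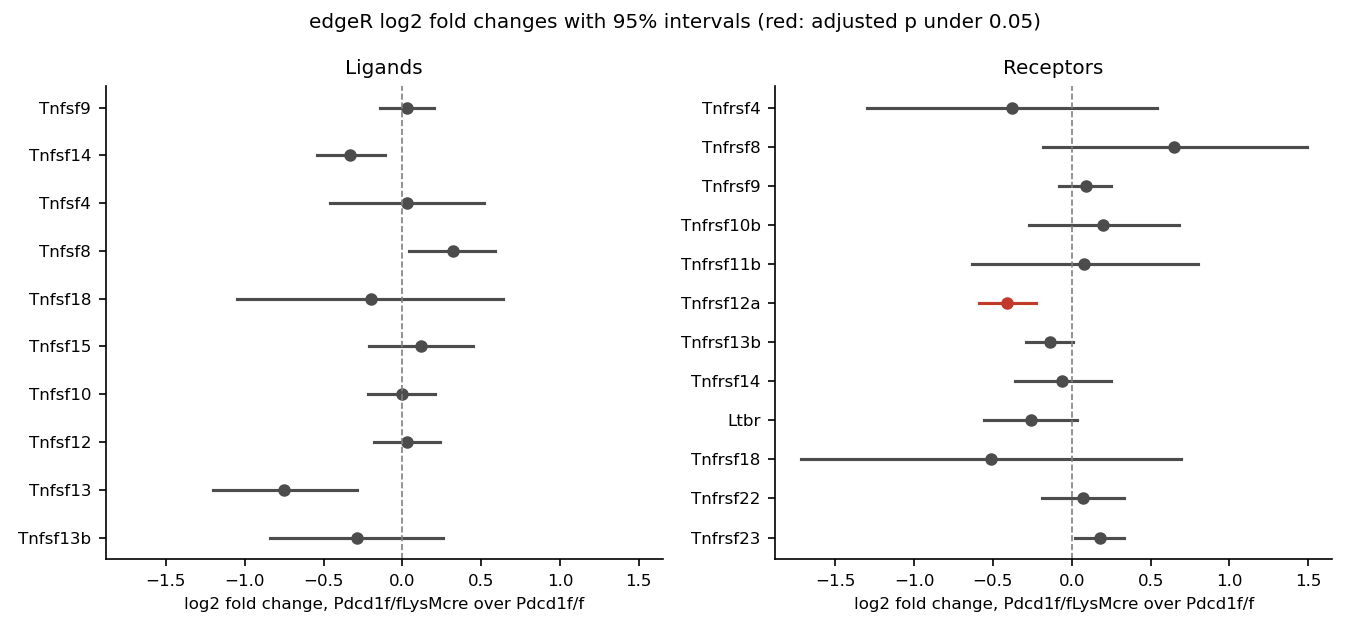
Log2 fold change, Pdcd1f/fLysMcre over Pdcd1f/f, of the 10 ligands (left) and their 12 tested receptors (right) from edgeR with 95% confidence intervals (3 libraries per genotype). The intervals of Tnfsf8, Tnfsf13 and Tnfsf14 lie to one side of 0, but no ligand passed the adjusted threshold, and of the receptors Tnfrsf12a did (red).

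Among the costimulatory ligands, Tnfsf14 (ENSMUSG00000005824, chr17:57189492-57194177, minus strand) encodes LIGHT, which binds HVEM on T cells and the lymphotoxin beta receptor on stromal and myeloid cells. It had 728, 777 and 848 normalized counts in Pdcd1f/f and 670, 574 and 628 in Pdcd1f/fLysMcre libraries. Every Pdcd1f/fLysMcre library was below every Pdcd1f/f library, and the spread within each genotype was alike. The means were 784 ± 60.2 and 624 ± 47.9 (SD, n = 3 each), a fold of 0.798 (95% confidence interval 0.689 to 0.924) and a log2 fold change of -0.33 with a standard error of 0.10 (edgeR, adjusted p = 0.074). With GC and length offsets, Tnfsf14 had a log2 fold change of -0.21. Its promoter, shown above, is the one with 4 NF-kB-like matches.

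Tnfsf8 (ENSMUSG00000028362, chr4:63831308-63861347, minus strand) encodes CD30 ligand, which acts on activated T cells that carry CD30. It had 210, 199 and 210 normalized counts in Pdcd1f/f and 237, 291 and 241 in Pdcd1f/fLysMcre libraries. All Pdcd1f/fLysMcre libraries were higher, with replicate 2, one of the 2 libraries that stood apart by GC content, the highest. Mean levels were 206 ± 6.39 in Pdcd1f/f and 256 ± 30.4 in Pdcd1f/fLysMcre TAMs (SD of 3 libraries), and the log2 fold change was 0.32 with a standard error of 0.13 and a 95% confidence interval of 0.04 to 0.59 (edgeR, adjusted p = 0.158). Without Pdcd1f/fLysMcre replicate 2 it was 0.21 (edgeR, adjusted p = 0.414). Activated T cells and dendritic cells can also carry CD30 ligand, although the CD11b+F4/80+ gate is designed to leave T cells out. Of 10 T and NK cell markers, 2 were tested and 0 were called in edgeR or DESeq2, none at an unadjusted p under 0.05. Trac was higher without overlap, with means of 30.0 and 42.3 normalized counts (edgeR, adjusted p = 0.311), and Cd2 had means of 31.9 and 23.9 (edgeR, adjusted p = 0.44). The T and NK list summed to 79.3 to 96.4 normalized counts in Pdcd1f/f and 78.1 to 94.4 in Pdcd1f/fLysMcre libraries, while the 7 dendritic cell markers summed to 241 to 346 and 303 to 382. Of these 7, 4 were tested, 0 were called in edgeR or DESeq2, and 2 had an unadjusted p under 0.05. Over all genes 5.43% were called in edgeR, 13.0% in DESeq2 with Storey's q, and 24.2% had such an unadjusted p. Flt3, with means of 46.6 and 74.8 normalized counts, did not overlap between genotypes and was higher beside Tnfsf8 (edgeR, adjusted p = 0.137), and Zbtb46 had means of 50.5 and 81 with overlap (edgeR, adjusted p = 0.12), whereas Ccr7, the largest part of the sum, had means of 169 and 173, and Batf3 had means of 28.4 and 20 (edgeR, adjusted p = 0.44). The part of other cells in the Tnfsf8 difference was not tested, and in these bulk libraries a change in the number of cells of a type and a change in RNA per cell cannot be told apart.

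Tnfsf9 (ENSMUSG00000035678, chr17:57105325-57107757, plus strand), the most abundant of the 10 listed ligands, had 1880, 2028 and 2241 normalized counts in Pdcd1f/f and 2047, 2086 and 2128 in Pdcd1f/fLysMcre libraries. All Pdcd1f/fLysMcre libraries fell inside the Pdcd1f/f range. The means were 2049 ± 182 and 2087 ± 40.5, and the fold was 1.02 with a 95% confidence interval of 0.905 to 1.15, the narrowest of the 10 on the log2 scale (edgeR, adjusted p = 0.856). Of its 1290 exon bases, 1098 are not shared with Gm11110, a long noncoding RNA on the other strand.

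Tnfsf4 (ENSMUSG00000026700, chr1:161395409-161418410, plus strand) encodes OX40 ligand, which sustains activated CD4+ T cells. It had 71.4, 61.5 and 64.6 normalized counts in Pdcd1f/f and 50.0, 76.2 and 75.7 in Pdcd1f/fLysMcre libraries, so the Pdcd1f/fLysMcre libraries lay on both sides of the controls. The fold was 1.02 with an interval of 0.729 to 1.43 (edgeR, adjusted p = 0.948). Tnfsf18 (ENSMUSG00000066755, chr1:161494655-161505290, plus strand), the gene of GITR ligand, a costimulator of effector T cells, lies 76.2 kb from Tnfsf4. It had 24.1, 12.3 and 30.7 normalized counts in Pdcd1f/f and 17.6, 17.1 and 23.6 in Pdcd1f/fLysMcre libraries. Its fold of 0.868 had the widest interval of the 10, 0.483 to 1.56 (edgeR, adjusted p = 0.783), and at 11 to 28 raw counts per library a difference inside that interval was not detectable.

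Tnfsf15 (ENSMUSG00000050395, chr4:63727084-63745113, minus strand) encodes TL1A, the ligand of death receptor DR3 on T cells and innate lymphoid cells, and lies 86.2 kb from Tnfsf8. It had 189, 183 and 160 normalized counts in Pdcd1f/f and 219, 197 and 162 in Pdcd1f/fLysMcre libraries. The ranges overlapped, with replicate 3 lowest in each genotype. The fold was 1.09 with an interval of 0.867 to 1.37 (edgeR, adjusted p = 0.65), and the log2 fold change of 0.12 ran from 0.02 without Pdcd1f/fLysMcre replicate 1 to 0.23 without Pdcd1f/fLysMcre replicate 3. Tnfsf8 and Tnfsf15, and likewise Tnfsf9 and Tnfsf14 at a distance of 81.7 kb, are neighboring ligand genes of which 1 had genotypes that did not overlap and the other had genotypes that did; the difference between neighbors was not tested.

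Tnfsf10 (ENSMUSG00000039304, chr3:27317028-27342427, plus strand) encodes TRAIL, the ligand that starts apoptosis through death receptors. It had 360, 339 and 344 normalized counts in Pdcd1f/f and 353, 350 and 335 in Pdcd1f/fLysMcre libraries. The genotypes covered the same narrow range, with means of 347 ± 11.1 and 346 ± 9.74. The fold was 0.998 with an interval of 0.86 to 1.16 (edgeR, adjusted p = 0.991).

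**Figure D3:**
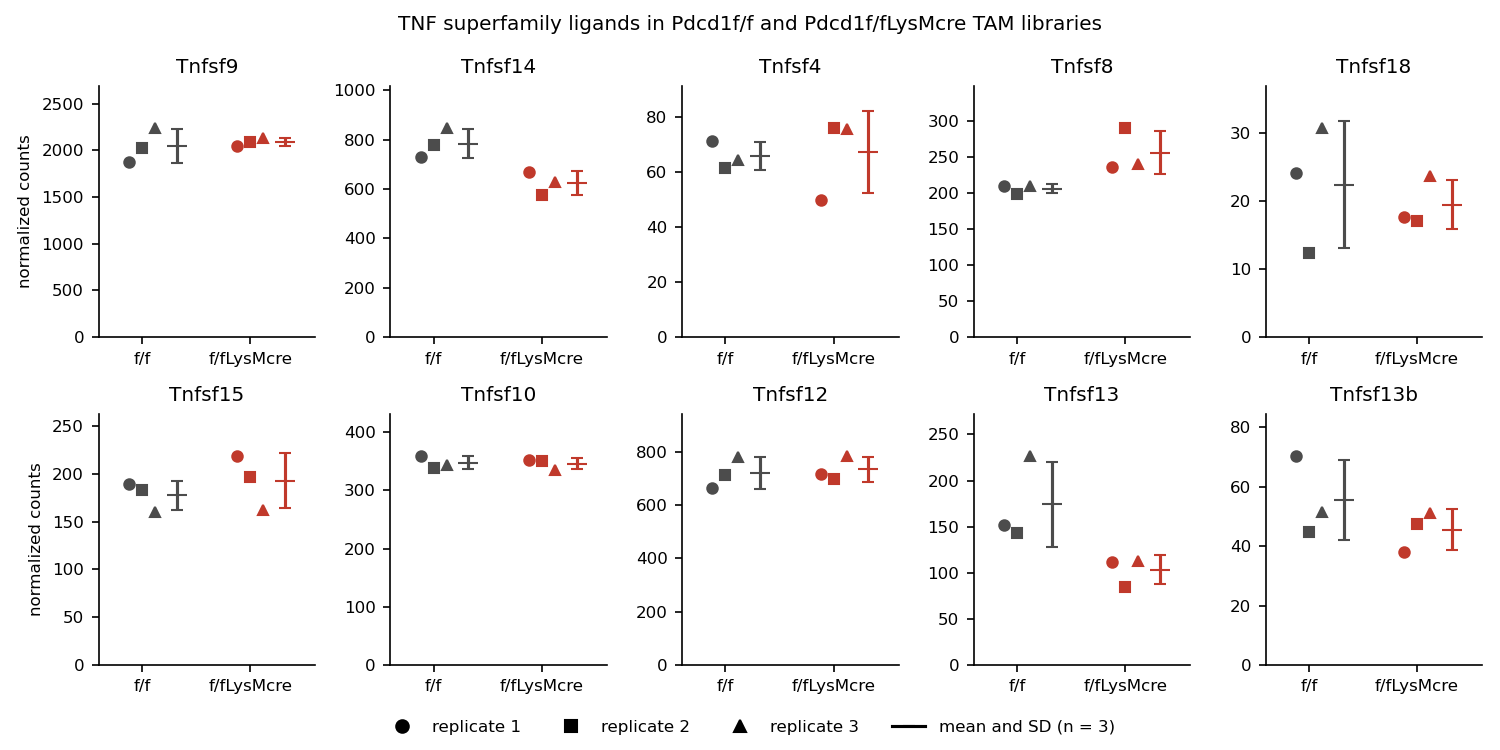
Normalized counts of the 10 ligands in 3 Pdcd1f/f and 3 Pdcd1f/fLysMcre libraries, with points for replicates and bars for mean and SD (n = 3). In Tnfsf13 and Tnfsf14 all Pdcd1f/fLysMcre points are below the Pdcd1f/f points, in Tnfsf8 all are above, and in the other 7 ligands the genotypes overlap.

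The ligands of B cells and of tissue repair were Tnfsf13, Tnfsf13b and Tnfsf12. Tnfsf13 (ENSMUSG00000089669, chr11:69682846-69685784, minus strand) encodes APRIL, which binds TACI and BCMA and sustains plasma cells. It had 152, 143 and 227 normalized counts in Pdcd1f/f and 112, 84.8 and 113 in Pdcd1f/fLysMcre libraries. Every Pdcd1f/fLysMcre library was below every Pdcd1f/f library, and Pdcd1f/f replicate 3 was well above the other 2 controls. The means were 174 ± 45.9 and 103 ± 16.0 (SD, n = 3 each), a fold of 0.596 (95% confidence interval 0.435 to 0.817) and a log2 fold change of -0.75 with a standard error of 0.21, the largest of the 10 in size (edgeR, adjusted p = 0.0625). Without Pdcd1f/f replicate 3 the log2 fold change was -0.52 (edgeR, adjusted p = 0.231).

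Tnfsf12 (ENSMUSG00000097328, chr11:69686250-69695849, minus strand) encodes TWEAK, a ligand of tissue repair and inflammation, and its gene ends 465 bases from the start of Tnfsf13. It had 662, 713 and 781 normalized counts in Pdcd1f/f and 715, 699 and 785 in Pdcd1f/fLysMcre libraries. These values overlapped throughout, with a fold of 1.02 and an interval of 0.885 to 1.18 (edgeR, adjusted p = 0.868). GC and length offsets moved its log2 fold change from 0.03 to 0.17 (edgeR, adjusted p = 0.0973). Tnfsf13b (ENSMUSG00000031497, chr8:10006467-10039072, plus strand) encodes BAFF, the survival factor of mature B cells. It had 70.5, 44.7 and 51.5 normalized counts in Pdcd1f/f and 37.9, 47.6 and 51.1 in Pdcd1f/fLysMcre libraries, overlapping apart from a high Pdcd1f/f replicate 1 and a low Pdcd1f/fLysMcre replicate 1. Its fold was 0.817 with an interval of 0.558 to 1.19 (edgeR, adjusted p = 0.498), and its log2 fold change went from -0.29 to -0.09 without Pdcd1f/f replicate 1.

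Tnfsf12 and Tnfsf13 share exons with Tnfsfm13 (ENSMUSG00000018752, chr11:69682577-69696098), a read-through gene on the same strand that joins them, and Tnfsf13os runs on the other strand. In the GENCODE M21 annotation, 784 of 1515 exon bases of Tnfsf12 and 654 of 1637 of Tnfsf13 are shared with no other gene of the strand. How reads in shared exons were assigned is not given in the sources used here, so the counts of these 3 genes are uncertain. Tnfsfm13 had 83.5, 93.9 and 118 normalized counts in Pdcd1f/f and 102, 63.8 and 89.5 in Pdcd1f/fLysMcre libraries, which overlap (log2 fold change -0.21, edgeR, adjusted p = 0.597). Tnfsf13os gave a log2 fold change of -0.3 (edgeR, adjusted p = 0.564). The summed counts of Tnfsf13 and Tnfsfm13 were 236, 237 and 345 in Pdcd1f/f and 214, 149 and 203 in Pdcd1f/fLysMcre libraries, again without overlap, whereas the sum over all 3 genes, with 898, 950 and 1126 against 929, 848 and 987, overlapped. The ratio of Tnfsf13 to Tnfsf12 counts, in percent, was 23, 20.1 and 29 in Pdcd1f/f and 15.7, 12.1 and 14.4 in Pdcd1f/fLysMcre libraries, so the APRIL counts were lower relative to the adjacent gene in every Pdcd1f/fLysMcre library. Dividing the same counts by unshared exon length alone, as for the level order, gave 19.5 ± 1.55 and 19.7 ± 1.4 RPKM for Tnfsf12 in Pdcd1f/f and Pdcd1f/fLysMcre libraries, and 5.66 ± 1.46 and 3.33 ± 0.537 for Tnfsf13.

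**Figure D4:**
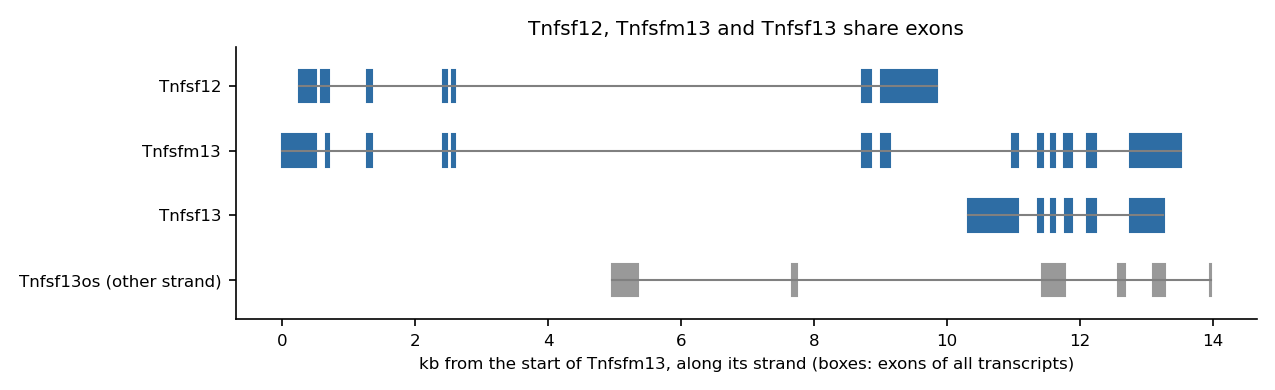
Exons (boxes) of Tnfsf12, Tnfsfm13 and Tnfsf13 along their common strand, and of Tnfsf13os on the other strand, in kb from the start of Tnfsfm13 (GENCODE M21). Tnfsfm13 contains exons of both Tnfsf12 and Tnfsf13, and 784 bases of Tnfsf12 and 654 of Tnfsf13 are unshared on the strand.

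The differences of Tnfsf13 and Tnfsf14 depended on the processing. Over 17 alternatives Tnfsf13 stayed lower in all 17, between -0.87 and -0.52, and passed the threshold in 8, and Tnfsf14 stayed lower in all 17, between -0.39 and -0.21, and passed in 6. With DESeq2 and Storey's q, Tnfsf13 had an adjusted value of 0.00863 and Tnfsf14 of 0.0205. Without Pdcd1f/f replicate 1, one of the 2 libraries that stood apart, both passed (edgeR, adjusted p = 0.0152 and 0.016), but then 21.6% of all genes did. Leaving out any of the other 5 libraries singly left neither past the threshold. Correction for GC content and length brought Tnfsf14 from -0.33 to -0.21 (edgeR, adjusted p = 0.0499), where 18.6% of all genes passed. Tnfsf13 went from -0.75 to -0.67 there (edgeR, adjusted p = 0.0174). With the replicate number added as a block Tnfsf14 did not pass (adjusted p = 0.0572 from edgeR) and 19.0% of all genes did. Tnfsf13 passed in that setting at -0.66 (edgeR, adjusted p = 0.00902). Tnfsf13 and Tnfsf14 also passed with both libraries that stood apart left out (26.2% of all genes) and with all genes of at least 1 count kept (7.32%). With the replicate block alone Tnfsf13 passed (7.10% of all genes), and with limma on the normalized table neither did (4.57%). Tnfsf8 stayed higher in all 17, between 0.21 and 0.37, and passed in 0.

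**Figure D5:**
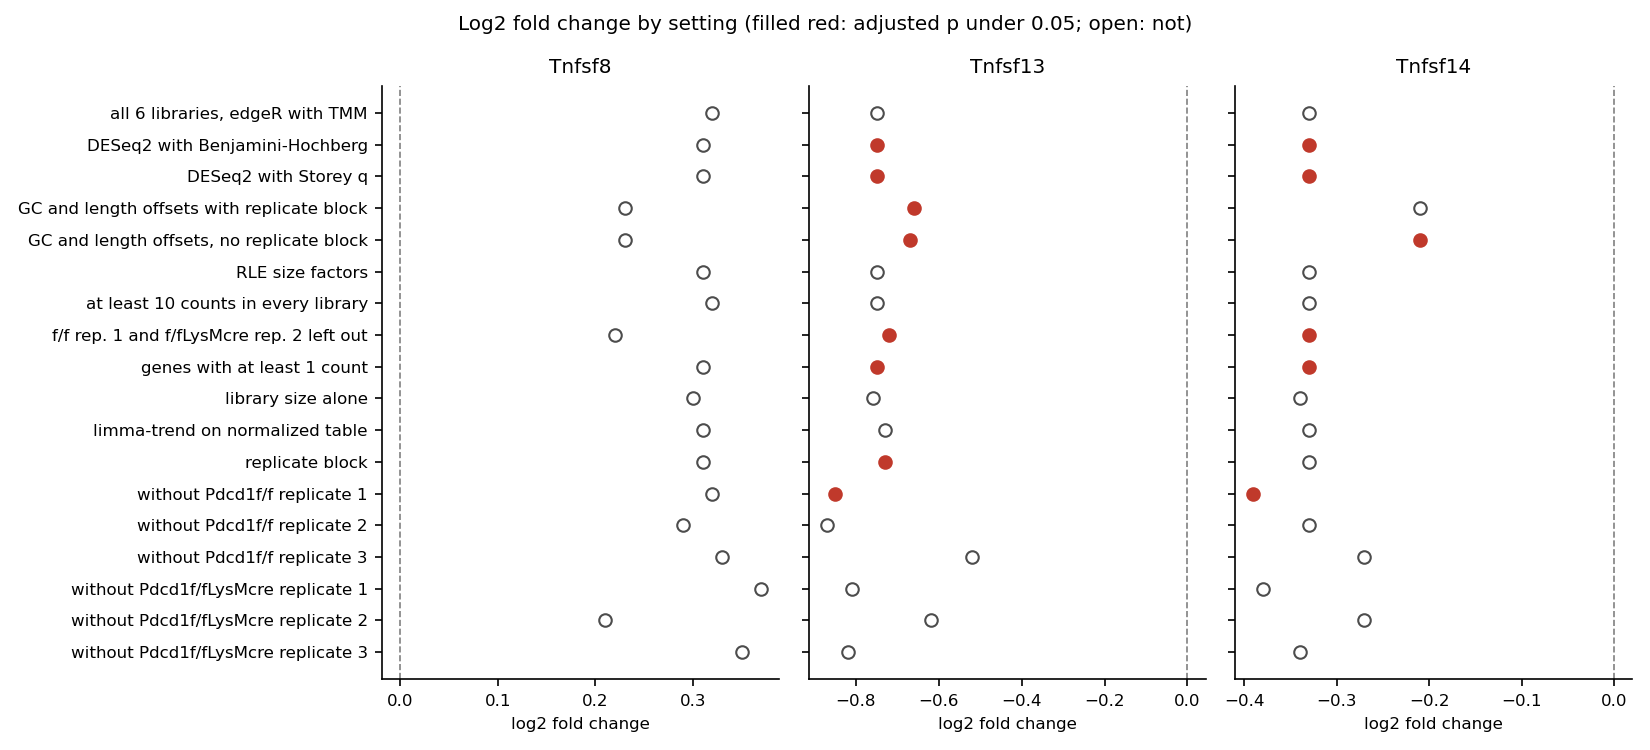
Log2 fold change of Tnfsf8, Tnfsf13 and Tnfsf14 in each processing setting, with filled red points at an adjusted p under 0.05 and open points otherwise. Tnfsf8 is open in every setting, and Tnfsf13 and Tnfsf14 are filled in 8 and 6 of 17 alternatives.

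Some markers of other cells were lower beside the lower Tnfsf13 and Tnfsf14, and others were not. The 5 B cell markers summed to 169 to 209 normalized counts in Pdcd1f/f and 120 to 149 in Pdcd1f/fLysMcre libraries, nearly all of it Cd79b, while Pax5 had 0 counts in all 6 libraries. Cd79b, the only 1 of the 5 tested, had a log2 fold change of -0.52 (edgeR, adjusted p = 0.067). DESeq2 with Storey's q called Cd79b lower, as it did 6.75% of all genes. The 6 neutrophil markers other than Ly6g summed to 6579 to 6745 in Pdcd1f/f and 5494 to 5623 in Pdcd1f/fLysMcre libraries. They split in direction, 3 with a log2 fold change above 0 and 3 below. Ly6g itself, which the sort removed, had 0 to 3 counts. Csf3r and Mmp8, the largest part of the sum, fell. Retnlg was lower without overlap, with means of 42.2 and 21.8 (edgeR, adjusted p = 0.11). In contrast, S100a8 had means of 1253 and 1472, S100a9 of 575 and 626 and Cxcr2 of 79.3 and 81, none of these 3 past the threshold. The macrophage markers given above were lower as well. Of 6 endothelial markers 5 were tested and 1 fell, Pecam1, with log2 fold changes of -0.14 to 0.02 in the other 4, and of 6 fibroblast or tumor markers 1 fell, Col1a2, with 2 of 6 above 0 and 4 below (3.01% of all genes fell). The sort for CD45+CD11b+F4/80+Ly6G- cells is designed to leave out all of these cells other than macrophages. The part of these cells in either difference was not tested.

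The receptors of these ligands were a list of 15, of which 12 were tested, 0 rose and 1 fell, Tnfrsf12a, in edgeR and in DESeq2 alike, with 2 at an unadjusted p under 0.05 in edgeR. Over all genes these shares were 5.43% in edgeR, 13.0% in DESeq2 with Storey's q and 24.2% at the unadjusted p, so the receptor counts lay near or below the background. Tnfrsf12a encodes Fn14, the receptor of TWEAK. It had 1504, 1632 and 1659 normalized counts in Pdcd1f/f and 1259, 1105 and 1249 in Pdcd1f/fLysMcre libraries, without overlap. It fell by 0.41 on the log2 scale with a standard error of 0.08 (edgeR, adjusted p = 0.0177), or by 0.27 with GC and length offsets (edgeR, adjusted p = 0.00327), while the counts of its ligand Tnfsf12 overlapped. The call held without Pdcd1f/f replicate 1 and without Pdcd1f/fLysMcre replicate 3 and was lost without any one of the other 4 libraries, at adjusted p-values from edgeR of 0.0609 to 0.119. The log2 fold change of Tnfrsf12a stayed between -0.46 and -0.35 with any single library left out. The receptor shared by APRIL and BAFF, TACI (Tnfrsf13b), had means of 1945 ± 69.3 and 1762 ± 43.2 (edgeR, adjusted p = 0.228), whereas the BAFF receptor gene Tnfrsf13c and the BCMA gene Tnfrsf17 had at most 6 and 3 counts in any library and were not tested.

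The LIGHT receptors were both present, Ltbr at 3213 ± 535 and 2670 ± 412 normalized counts and Tnfrsf14 at means of 484 and 464, with adjusted p-values from edgeR of 0.252 and 0.833. The log2 fold change of Ltbr ran from -0.40 to -0.10 over 17 alternatives, and it was called in 3, with both libraries that stood apart left out (edgeR, adjusted p = 0.00861), without Pdcd1f/f replicate 1 (0.0192) and with all genes of at least 1 count kept (0.0254). With both of those libraries left out, where 26.2% of all genes passed, Tnfrsf13b and the TRAIL decoy receptor gene Tnfrsf23 passed as well (edgeR, adjusted p = 0.0447 and 0.0312). The receptor of CD137 ligand, Tnfrsf9, was itself expressed, with means of 1373 and 1456 (edgeR, adjusted p = 0.508). CD30, Tnfrsf8, was low, at 8.35, 17.9 and 14.2 normalized counts in Pdcd1f/f and 23.1, 18.1 and 21.6 in Pdcd1f/fLysMcre libraries (edgeR, adjusted p = 0.317), and Tnfrsf4 and Tnfrsf18, the OX40 and GITR genes of T cells, were low too, at 24.3 and 18.4 and at 8.8 and 6.11. Among TRAIL receptors, the death receptor gene Tnfrsf10b had means of 72.3 and 83.0 and the decoy receptor genes Tnfrsf22 and Tnfrsf23 means of 261 and 274 and of 1472 and 1661, none past the threshold. Tnfrsf11b, which encodes the soluble decoy osteoprotegerin, had means of 31.4 and 33.5, and Tnfrsf25, the DR3 gene, had at most 2 counts in any library.

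Downstream of the receptors, 17 of 17 signaling genes were tested, 1 rose and 0 fell in edgeR, with 5 at an unadjusted p under 0.05, and 4 rose and 0 fell in DESeq2 with Storey's q. Over all genes 5.43% were called and 24.2% had such an unadjusted p in edgeR, near the counts of the list, and in DESeq2 6.21% rose, against 4 of 17 here. Traf1, an NF-kB-induced adaptor of CD137 and other receptors, had 7655, 8132 and 8339 normalized counts in Pdcd1f/f and 10441, 9557 and 10881 in Pdcd1f/fLysMcre libraries. It rose by 0.36 on the log2 scale with a standard error of 0.07 (edgeR, adjusted p = 0.0148), and the call was lost without Pdcd1f/f replicate 2, Pdcd1f/fLysMcre replicate 1 or Pdcd1f/fLysMcre replicate 3, at adjusted p-values from edgeR of 0.0906, 0.0935 and 0.0562. The log2 fold change of Traf1 in these settings was 0.37, 0.35 and 0.31, in the same order. Of 6 tested genes that cut or shed these ligands, such as the proprotein convertase gene Furin, 0 were called in edgeR or DESeq2 and 0 had an unadjusted p under 0.05 in edgeR. Of 8 other ligands of the family, 4 were tested and 0 called in edgeR, with 1 at an unadjusted p under 0.05. The shares over all genes were 5.43% and 24.2%. DESeq2 with Storey's q called 1 of these ligands lower, as it did 6.75% of all genes. Tnf had means of 5446 ± 216 and 4742 ± 113 normalized counts and was lower without overlap, as were 13.1% of all genes. Its log2 fold change was -0.2 (edgeR, adjusted p = 0.0859). Tnfsf11, which encodes the osteoclast factor RANKL, had 4.64, 13.4 and 11 normalized counts in Pdcd1f/f and 7.4, 23.8 and 30.5 in Pdcd1f/fLysMcre libraries, with overlap and a log2 fold change of 1.1 with a standard error of 0.57 (edgeR, adjusted p = 0.259).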

How the data were processed

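RNA of 3 Pdcd1f/f and 3 Pdcd1f/fLysMcre TAM libraries was sequenced as stranded, paired-end polyA libraries. Per the submitters' processing notes the tools were FastQC 0.11.5, Cutadapt 2.5, STAR 2.7.3a, featureCounts of Subread 1.6.2 and DESeq2 1.24.0, on GRCm38. The authors deposited raw counts per gene (55421 rows), and the deposited normalized signal, counts divided by DESeq2 size factors (16552 rows). Strand setting and treatment of multi-mapped reads are not given in the sources used here. Symbols, positions and exon lengths came from GENCODE M21, another release than the Ensembl annotation the authors counted on, so exon lengths and shared bases may differ from those behind the counts.

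Raw counts were filtered with filterByExpr (minimum 10), scaled by TMM and fitted with edgeR 4.0.16 (quasi-likelihood, robust, two-sided, genotype only) over 14469 genes, with Benjamini-Hochberg adjustment and a threshold of 0.05. DESeq2 1.42.0 and limma 3.58.1 on log2(value + 1) were alternatives, beside other scalings, filters, offsets and omitted libraries. The code was tested on simulated counts. An exact permutation test of 3 against 3 cannot go below 0.1 and was not used. The common biological coefficient of variation was 8.92%. All members were named. Genes of the other lists were named where called in edgeR, except the called macrophage markers and Lyz1. Genes called by DESeq2 alone were named only in part. The remaining receptors, Tnf, Tnfsf11 and uncalled markers were named after their values were seen. The members and lists were chosen with earlier results of these data known.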

Additional observations from a re-analysis of the deposited data

How the results depend on the processing

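The count of ligands past the threshold (0 in the analysis reported) was 2 with DESeq2 under either adjustment, 2 with GC and length offsets, 2 with both libraries that stood apart left out, 2 with all genes of at least 1 count, 1 with the replicate block and 1 with offsets and the replicate block; it was 0 with RLE factors, library size alone, at least 10 counts in every library, and limma, and 0 to 2 with single libraries left out. The count of all genes past it (786) was 1599 with DESeq2 and Benjamini-Hochberg, 1875 with Storey's q, 2689 with the offsets, 2744 with the offsets and replicate block, 3757 with both libraries left out, 1951 with all genes of at least 1 count, and 222 to 3181 with single libraries left out. The replicate block alone gave 1027 genes. Libraries sharing a number had correlations of deviations of -0.0132, -0.097 and 0.22. The highest correlation, 0.235, was between Pdcd1f/f replicate 1 and Pdcd1f/fLysMcre replicate 2, which stood apart by GC content. These values do not settle whether the numbers pair the libraries. Direction turned, by log2 fold change, in Tnfsf4 (-0.03 with offsets and replicate block, 0 with offsets, -0.01 with both libraries left out), Tnfsf9 (-0.04), Tnfsf10 (0.01) and Tnfrsf10b (-0.08) with both libraries left out, and Tnfrsf14 (0.03 with offsets, 0.03 with the block added). With single libraries left out the ranges were -0.07 to 0.21 for Tnfsf4, -0.04 to 0.09 for Tnfsf9, -0.02 to 0.01 for Tnfsf10, -0.03 to 0.09 for Tnfsf12, -0.48 to 0.08 for Tnfsf18, -0.61 to 0.09 for Tnfrsf4, -0.17 to 0.29 for Tnfrsf11b, -0.17 to 0.07 for Tnfrsf14, -0.01 to 0.13 for Tnfrsf22 and -0.58 to 0.02 for Pdcd1. The cause was not tested. Low counts limit Tnfsf18, Tnfsf13b and Tnfsf4 most. The direction of 5 of the 10 ligands held in all 17 alternatives.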
